A study of Homo sapiens with 40 samples.

Results

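The suppressor of cytokine signaling (SOCS) family is described here through SOCS1 to SOCS7 and CISH, which are 8 of the 44584 gene names in the count table and were taken as the rows with exactly these names. SOCS proteins restrain signaling from cytokine receptors. Cytokines and hormones such as interferons, IL6, growth hormone and prolactin act on receptors that carry JAK kinases, the kinases phosphorylate STAT transcription factors, and STAT dimers switch on SOCS genes as negative feedback. A SOCS protein binds phosphorylated receptors or kinases through its SH2 domain and, through its SOCS box, recruits elongins B and C and cullin 5, which mark the bound protein for degradation. In mammary epithelium, CISH and SOCS2 are known as targets of prolactin and STAT5, SOCS3 as a target of IL6-type cytokines and STAT3, and SOCS1 as a target of interferons, while SOCS4 and SOCS5 have been linked to turnover of the EGF receptor.

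The RNA came from BT474 cells, an established line of HER2-positive breast carcinoma sensitive to the HER2 antibody trastuzumab, and from BT474R, a resistant clone obtained from it by culture with 10 ug/mL trastuzumab. All cells were first starved of serum, and cells collected then are the T0 groups. The other cells of each line received fresh starvation medium with 50 ng/mL EGF, 10 ng/mL heregulin (HRG) or water as the vehicle for 1 h, 12 h or 24 h. EGF binds EGFR, and HRG binds HER3 and HER4, which pair with HER2. Each of the 20 groups of line, treatment and time was sequenced as 2 libraries, 40 in all, and BT474R represents resistance through 1 clone.

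Libraries held between 16794594 and 33387936 counts on genes. A count of 3, taken as the detection limit, was at most 0.179 CPM (a count scaled to a common library size with TMM factors). Luminal epithelial markers were high in both lines, with KRT8 at 980.3 to 2634 CPM and CDH1 at 784 to 1174 CPM over the 40 libraries, but GATA3 was at 307 to 546 CPM in BT474 and 10.6 to 55.5 CPM in BT474R. The leukocyte markers PTPRC, CD14 and CD3E, the endothelial marker PECAM1 and the fibroblast markers COL1A2 and PDGFRB did not exceed 0.218 CPM in any library. COL1A1, however, was at 75.1 to 295 CPM and CDH5 at 0 to 7.61 CPM, so not every marker of other cell types was absent.

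RefSeq promoter windows, 250 bases before to 50 bases after a gene start on GRCh38.p14, were held for 5 of the 8 members (SOCS1, SOCS3, SOCS4, SOCS6 and CISH). They were searched on both strands for the STAT site TTCNNNGAA, the AP-1 site TGANTCA, the CRE TGACGTCA, the EGR site GCGTGGGCG and the paired IRF half-sites GAAANNGAA. The motifs were found in 7.66%, 7.71%, 1.85%, 0.795% and 8.11% of all 35116 windows, in that order. CISH held 4 STAT sites, a number reached or passed in 7 of all windows (0.0199%), and none of the other motifs. SOCS3 has 2 windows, and neither held any of the 5 motifs. Neither window covers the SOCS3 gene start of GENCODE v44, at chr17:78360077 on the minus strand. The first, at 78360876 to 78361175, lies upstream of that start, and the second, at 78359618 to 78359917, lies inside the gene. The bases around that start were therefore not searched. SOCS1 held 1 pair of IRF half-sites, SOCS4 held 1 EGR site and SOCS6 held none of the motifs. The CISH window and the upstream SOCS3 window are shown, CISH because it held STAT sites, at -241, -230, -129 and -112 from the gene start, and SOCS3 because it was, among members with a window, the one called in most ligand comparisons. A match is a description of letters and not a measured binding site. Capitals mark the STAT sites.
CISH, chr3:50611725-50612024, minus strand: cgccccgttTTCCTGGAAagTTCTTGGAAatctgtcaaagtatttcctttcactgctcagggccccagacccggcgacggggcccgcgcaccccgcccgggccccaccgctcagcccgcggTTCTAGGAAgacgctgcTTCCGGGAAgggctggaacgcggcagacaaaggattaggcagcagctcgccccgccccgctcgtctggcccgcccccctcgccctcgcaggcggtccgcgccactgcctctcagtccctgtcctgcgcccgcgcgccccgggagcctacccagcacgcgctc
SOCS3, chr17:78360876-78361175, minus strand: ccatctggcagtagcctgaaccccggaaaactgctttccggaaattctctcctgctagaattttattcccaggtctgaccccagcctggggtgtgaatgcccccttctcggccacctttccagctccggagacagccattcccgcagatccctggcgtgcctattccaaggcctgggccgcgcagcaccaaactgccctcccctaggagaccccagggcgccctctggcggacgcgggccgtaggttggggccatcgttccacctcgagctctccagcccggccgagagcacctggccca

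At T0 the family spanned a wide range of levels per exon length, computed as CPM per kb of merged exons in GENCODE v44. SOCS7, a member linked to insulin receptor signaling, was highest, at 37.2 ± 0.518 CPM per kb (mean ± SD, n = 2) in BT474 and 50.6 ± 1.59 in BT474R. SOCS6, which is known to bind KIT and insulin receptor substrates, followed at 9.75 ± 0.563 in BT474 and 13.3 ± 0.246 in BT474R, and SOCS4 was at 8.998 ± 0.109 and 9.38 ± 0.0232. CISH was at 5.63 ± 0.454 and 3.91 ± 0.272, and SOCS5 at 2.97 ± 0.0138 and 3.17 ± 0.186. The low end held SOCS2 at 2.12 ± 0.012 and 1.32 ± 0.0966, SOCS3 at 1.18 ± 0.0275 and 0.478 ± 0.148, and SOCS1 at 0.998 ± 0.0968 and 0.658 ± 0.218. The libraries of neighbours in this order did not overlap, except SOCS1 and SOCS3 in BT474R.

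**Figure D1:**
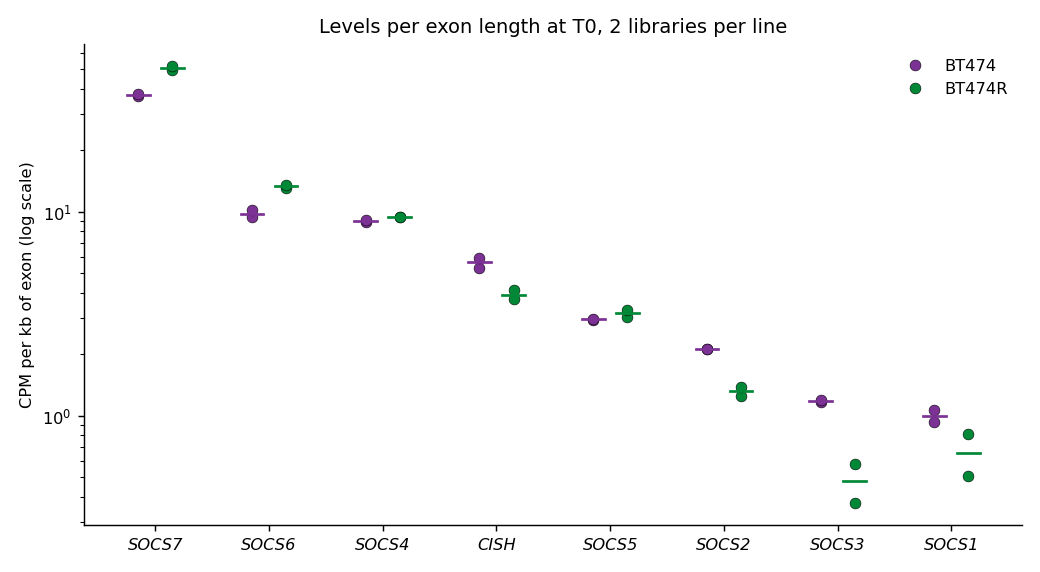
Level of each member at T0 in CPM per kb of exon (log axis), with 2 libraries per line as points and their mean as a bar. SOCS7 was highest and SOCS1 and SOCS3 lowest in both lines.

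SOCS7 lies at chr17:38351844-38405593 (GRCh38, plus strand), 1.28 Mb before the start of ERBB2, the gene for HER2. Its row took 287 to 406 CPM in BT474 and 410.2 to 567 CPM in BT474R. A further row with the name SOCS7 and a number, which was not summed into it, held 15.7% to 17.7% of the reads of both rows together, so the level of SOCS7 is uncertain by that share.

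The lines differed before any ligand was added. At T0, 5 of the 8 members differed between BT474R and BT474, beside 46.9% of all 24641 genes tested (edgeR's quasi-likelihood F test, Benjamini-Hochberg adjusted p under 0.05, here called a DEG). SOCS2, a feedback regulator of growth hormone signaling, was at 13.8 and 13.7 CPM in BT474 and 8.10 and 8.99 CPM in BT474R, a log2 difference of -0.68 (SE 0.12, adjusted p = 7.57e-06). SOCS3, which blocks signaling from the IL6 receptor subunit gp130, was at 3.17 and 3.28 CPM against 1.02 and 1.59 CPM, the widest difference among the members (log2 difference -1.27, SE 0.28, adjusted p = 0.000205). CISH was also lower in BT474R (-0.52, SE 0.08). SOCS6 and SOCS7 were higher in BT474R, both by 0.44 on the log2 scale (SE 0.07 and 0.05). The libraries of the lines did not overlap in these 5 members, but the same held for SOCS1, SOCS4 and SOCS5. How often all genes separate between the lines was not counted. The 5 log2 differences kept their direction without any one T0 library. SOCS1, SOCS4 and SOCS5 were not called, although SOCS1 was called at -1.02 without BT474R T0 replicate 2 (adjusted p = 0.0401).

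Over the 12 comparisons of a ligand with the vehicle of its own time and line, the 8 members gave 96 tests, all on genes that passed the filter on low counts. Of these, 13 showed a fall and 7 a rise. SOCS2 fell in 9 of 12 comparisons and SOCS3 in 4, SOCS4, SOCS6 and SOCS7 each rose in 2, CISH rose in 1, and SOCS1 and SOCS5 were not called in any. Both ligand libraries were below both vehicle libraries in 10 comparisons for SOCS2, and above them in 10 for SOCS4, 9 for SOCS7 and 7 for CISH. Most of these separations of SOCS4, SOCS7 and CISH were not called. How often all genes separate in this way was not counted, so these counts do not show a consistent rise or fall. The comparisons of both ligands at a time share the vehicle libraries, so their results are not independent of each other.

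**Figure D2:**
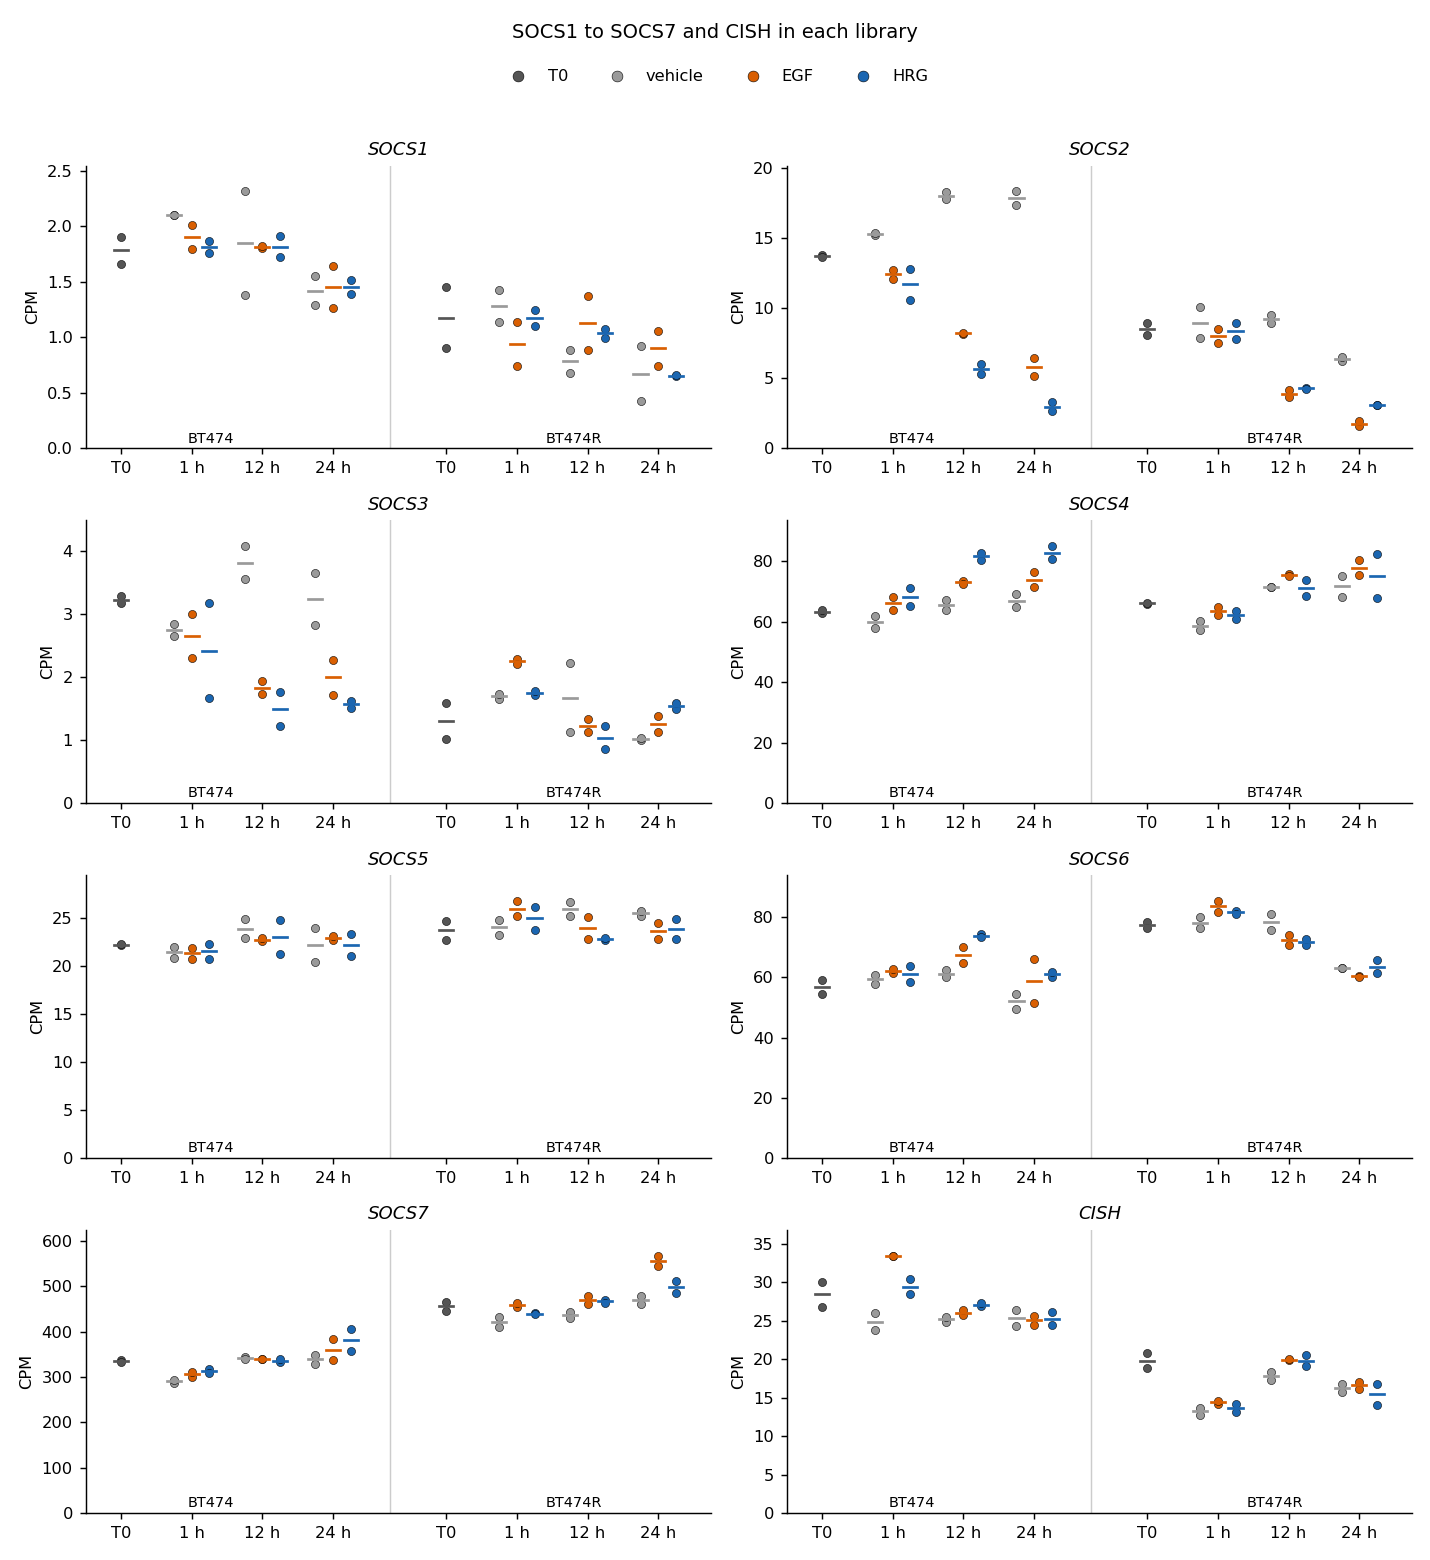
CPM of each member in all 40 libraries, by line and time, with points as libraries, bars as means of 2 libraries and colors as treatments. SOCS2 stayed at 13.7 to 18.4 CPM in T0 and vehicle libraries of BT474 and was at 2.66 to 3.28 CPM after 24 h of HRG.

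SOCS2 (chr12:93569814-93583487, plus strand) was the member with the widest response. In BT474 it was at 15.2 and 15.4 CPM in vehicle at 1 h, 12.1 and 12.8 CPM with EGF, and 12.8 and 10.6 CPM with HRG. Both ligand groups were thus below vehicle within 1 h, with no overlap. The log2 fold change was -0.39 with HRG (SE 0.10, adjusted p = 0.0217), which was called, and -0.32 with EGF (SE 0.10, adjusted p = 0.0855), which was not. The HRG call at 1 h was lost without HRG replicate 2 or without either vehicle library, and in 3 of 8 other settings, over which the adjusted p ran from 0.0124 to 0.102.

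At 12 h, SOCS2 was at 17.8 and 18.3 CPM in vehicle, 8.15 and 8.26 CPM with EGF, and 5.999 and 5.28 CPM with HRG in BT474. At 24 h the values were 17.4 and 18.4 CPM in vehicle, 5.15 and 6.43 CPM with EGF, and 2.66 and 3.28 CPM with HRG. The 3 treatments were separated without overlap at both times, in the order vehicle, EGF, HRG. In bulk libraries such as these, fewer expressing cells and less RNA per cell cannot be told apart. EGF-BT474 had 2.22-fold less SOCS2 RNA than vehicle at 12 h (log2 -1.15, SE 0.10, adjusted p = 8.68e-11) and 3.14-fold less at 24 h (-1.65, SE 0.11, adjusted p = 2.17e-14). For HRG-BT474 the falls were 3.28-fold at 12 h (-1.71, SE 0.11, adjusted p = 1.88e-15) and 6.17-fold at 24 h (-2.63, SE 0.12, adjusted p = 3.51e-19). All libraries with a ligand at these times were also below the T0 libraries at 13.8 and 13.7 CPM.

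In BT474R, SOCS2 was not called at 1 h, and the libraries overlapped at 10.1 and 7.87 CPM in vehicle, 8.55 and 7.55 CPM with EGF, and 8.94 and 7.80 CPM with HRG. At 12 h it was at 8.96 and 9.55 CPM in vehicle, 3.65 and 4.16 CPM with EGF, and 4.32 and 4.25 CPM with HRG. At 24 h it was at 6.23 and 6.54 CPM in vehicle, 1.61 and 1.91 CPM with EGF, and 3.07 and 3.10 CPM with HRG. Every ligand library of 12 h and 24 h was below every vehicle library of its time, and at 24 h EGF was lower than HRG, the reverse of BT474. EGF-BT474R fell 2.38-fold at 12 h (-1.25, SE 0.14, adjusted p = 1.7e-06) and 3.60-fold at 24 h (-1.85, SE 0.17, adjusted p = 6.76e-08). HRG-BT474R fell 2.19-fold at 12 h (-1.13, SE 0.14, adjusted p = 1.68e-05) and 2.04-fold at 24 h (-1.03, SE 0.16, adjusted p = 0.000934). In a fit of only the 4 libraries compared, the fall of HRG-BT474R at 24 h was not called (adjusted p = 0.828).

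**Figure D3:**
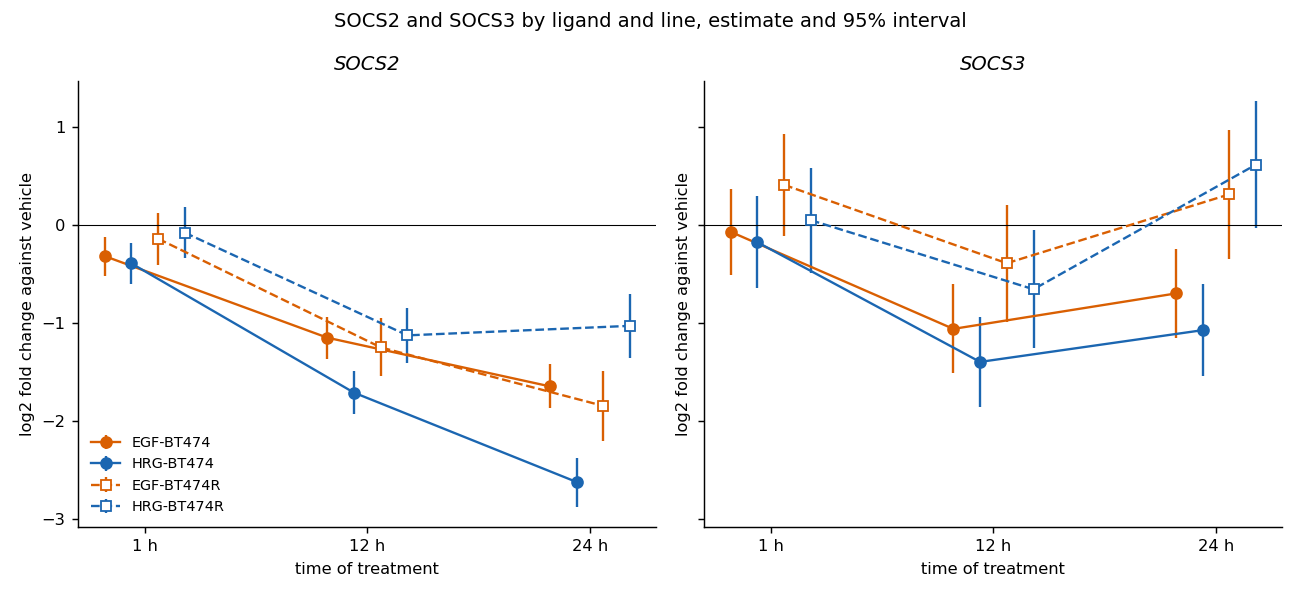
Log2 fold change against vehicle of SOCS2 and SOCS3 at the 3 times, with 95% intervals, for EGF and HRG in BT474 (filled, solid lines) and BT474R (open, dashed lines). SOCS2 reached -2.63 in HRG-BT474 and -1.85 in EGF-BT474R at 24 h.

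The ligands were also compared with each other, and SOCS2 was the single member called. In BT474 it was lower with HRG than with EGF at 12 h (-0.56, SE 0.13, adjusted p = 0.00855) and 24 h (-0.98, SE 0.15, adjusted p = 0.000236), while at 1 h the difference was -0.07 with a 95% interval from -0.28 to 0.13. In BT474R it was higher with HRG than with EGF at 24 h (0.82, SE 0.20, adjusted p = 0.0132). At 12 h in BT474R the difference was 0.12, with an interval from -0.20 to 0.45. No member was called at 1 h in BT474 or at 1 h and 12 h in BT474R, where 1, 0 and 0 members had an unadjusted p under 0.05 by edgeR and DESeq2 called 0. Shares of all genes called were 0.139%, 2.17% and 0.768% in BT474 and 0.0494%, 1.42% and 5.18% in BT474R at the 3 times in turn. The 12 h call in BT474 was lost without either EGF library or without HRG replicate 2, and the 24 h call in BT474R without either EGF library or in a fit of only the 4 libraries compared (adjusted p = 0.434). Other members were called at 24 h when 1 library was left out, SOCS4 (0.21) and SOCS6 (0.24) in BT474 without EGF replicate 2 and SOCS7 (-0.20) in BT474R without HRG replicate 1. With all libraries, SOCS7 in BT474R at 24 h was called by DESeq2 (-0.15, adjusted p = 0.0304) and with filterByExpr (-0.14, adjusted p = 0.0499). SOCS4 in BT474 at 12 h was called with only the libraries compared (0.15, adjusted p = 0.0288).

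Whether the order of the ligands differed between the lines was tested after the order had been seen. At 24 h the difference of HRG from EGF in SOCS2 was 1.76 higher in BT474R than in BT474 on the log2 scale (SE 0.25, adjusted p = 5.37e-06), and it was called in each of 7 other settings and without any one library. SOCS7 was called as well, with a difference of -0.24 (adjusted p = 0.0388) that was lost without any of 4 libraries, EGF replicate 2 or HRG replicate 1 of BT474, or replicate 2 of EGF or HRG in BT474R, and also with copy rows summed or only the libraries compared. No member was called at 1 h or 12 h by edgeR on all 40 libraries or by DESeq2. By edgeR 0 and 2 members had an unadjusted p under 0.05, and SOCS2 at 12 h was at 0.69 with an adjusted p of 0.0598. With only the libraries compared, SOCS2 (0.69, adjusted p = 0.0198) and SOCS4 (-0.24, adjusted p = 0.0143) were called at 12 h. Of all genes, 0.138%, 2.33% and 4.82% were called in this comparison at the 3 times in turn.

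An antisense gene, SOCS2-AS1, overlaps SOCS2 over 1955 bases of the genome and 277 bases of exon in GENCODE v44. It was named after the values were seen. Its level was 1.42 to 2.43 CPM in vehicle libraries of BT474, 0.269 to 0.734 CPM with either ligand at 12 h and 24 h, and it was called lower in EGF-BT474 and HRG-BT474 at both times, from -1.65 to -2.30. In BT474R it did not exceed 0.889 CPM and was called in EGF-BT474R at 12 h (-2.27, SE 0.66, adjusted p = 0.0236), on 1 to 4 counts in the EGF libraries. The strand setting of the counting is not given in the sources used here, so reads from the 277 shared bases cannot be assigned to either gene with certainty.

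SOCS3 (chr17:78356778-78360077, minus strand) was a lower-expressed gene that fell late in BT474. At 1 h it was at 2.84 and 2.65 CPM in vehicle, 3.00 and 2.29 CPM with EGF, and 3.17 and 1.67 CPM with HRG, so all groups overlapped. At 12 h it was at 3.55 and 4.08 CPM in vehicle, 1.94 and 1.73 CPM with EGF, and 1.77 and 1.22 CPM with HRG. At 24 h it was at 2.82 and 3.64 CPM in vehicle, 2.28 and 1.72 CPM with EGF, and 1.62 and 1.52 CPM with HRG. Ligand and vehicle libraries were apart at both later times. The log2 fold changes were -1.06 (SE 0.22, adjusted p = 0.000553) and -0.70 (SE 0.22, adjusted p = 0.0249) for EGF and -1.40 (SE 0.23, adjusted p = 5.3e-06) and -1.08 (SE 0.23, adjusted p = 0.000395) for HRG at 12 h and 24 h. The EGF call at 24 h was lost without EGF replicate 2 or vehicle replicate 2 and by DESeq2 (adjusted p = 0.0824).

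In BT474R, SOCS3 was not called in any ligand comparison. At 24 h it was at 0.999 and 1.03 CPM in vehicle, 1.13 and 1.38 CPM with EGF, and 1.49 and 1.59 CPM with HRG. Here the ligand libraries were above vehicle, opposite to BT474, with log2 fold changes of 0.31 (95% interval -0.35 to 0.97) for EGF and 0.61 (-0.03 to 1.26) for HRG. At 12 h the vehicle libraries, at 2.22 and 1.13 CPM, overlapped with EGF at 1.34 and 1.12 CPM and with HRG at 0.856 and 1.22 CPM. The 12 h estimates were in the same direction as in BT474, at -0.39 (95% interval -0.99 to 0.21) for EGF. For HRG the estimate was -0.66 (-1.26 to -0.06, adjusted p = 0.252). An opposite response of SOCS3 in BT474R is thus not shown over both times. SOCS3 counts in BT474R began at 17 reads per library, which limits the precision there.

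CISH, the founding member of the family, was the single member called higher at 1 h, with EGF in BT474. In BT474 it was at 23.8 and 26.0 CPM in vehicle, 33.4 and 33.5 CPM with EGF, and 30.4 and 28.5 CPM with HRG at 1 h. Both ligand groups were above vehicle. EGF raised it 1.32-fold (log2 0.40, SE 0.07, adjusted p = 0.000256), a call kept without any one library of the comparison, and HRG was at 0.23 (SE 0.08, adjusted p = 0.1). With copy rows summed, the HRG rise of CISH at 1 h was called (0.26, adjusted p = 0.0431), and so was that of SOCS4. By 12 h and 24 h the log2 fold changes of CISH in BT474 were between -0.03 and 0.08. In BT474R, CISH was at 13.7 and 12.8 CPM in vehicle, 14.2 and 14.5 CPM with EGF, and 14.2 and 13.1 CPM with HRG at 1 h, and it was not called at any time. The EGF effect at 1 h was not shown to differ between the lines (difference -0.30, 95% interval -0.53 to -0.07, adjusted p = 0.679).

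SOCS4 and SOCS6 rose modestly with HRG in BT474. At 1 h the log2 fold change of SOCS4 was 0.18 (SE 0.06, adjusted p = 0.0971), not called, and 0.26 without HRG replicate 2. With copy rows summed, SOCS4 was called at 1 h (0.20, adjusted p = 0.0337). SOCS4 was at 67.2 and 63.9 CPM in vehicle and 80.4 and 82.8 CPM with HRG at 12 h, and at 69.1 and 64.9 CPM against 85.0 and 80.7 CPM at 24 h. Both rises were 1.22-fold (log2 0.29, SE 0.05 at each time, adjusted p = 6.78e-05 and 7.73e-05) and were kept without any one library. With EGF, SOCS4 was at 0.14 (adjusted p = 0.0796 and 0.0967) at both times. Without EGF 24 h replicate 1, both SOCS4 (0.19, adjusted p = 0.0324) and SOCS6 (0.34, adjusted p = 0.000178) were called higher with EGF at 24 h. SOCS6 was at 62.3 and 60.1 CPM in vehicle and 74.5 and 73.4 CPM with HRG at 12 h, a log2 change of 0.24 (SE 0.07, adjusted p = 0.00765), and at 49.7 and 54.7 CPM against 60.2 and 61.9 CPM at 24 h, a change of 0.20 (SE 0.07, adjusted p = 0.0391). The SOCS6 call was lost at 12 h without vehicle replicate 2, and at 24 h without vehicle replicate 1 or either HRG library. Neither gene was called in BT474R, where HRG left SOCS4 at 73.8 and 68.4 CPM beside 71.6 and 71.4 CPM in vehicle at 12 h, and SOCS6 at 70.8 and 72.8 CPM beside 75.7 and 80.9 CPM.

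SOCS7 rose with EGF in BT474R and with HRG in BT474, at 24 h. In BT474R it was at 461 and 478 CPM in vehicle, 544 and 567 CPM with EGF and 512 and 486 CPM with HRG. The EGF libraries were above all others, and the log2 fold change of 0.24 (SE 0.05, adjusted p = 0.000634) was kept without any one library. The further SOCS7 row rose by 0.21 (SE 0.05, adjusted p = 0.00686) in the same comparison. In BT474 the values were 348 and 329 CPM in vehicle and 406 and 358 CPM with HRG, and the rise of 0.15 (SE 0.05, adjusted p = 0.0115) was lost without HRG replicate 1 or vehicle replicate 2. With EGF in BT474 at 24 h, SOCS7 was called without EGF replicate 2 (0.17, adjusted p = 0.0116).

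SOCS1, the member best known for blocking interferon signaling, and SOCS5 were not called with either ligand. SOCS1 stayed at 1.27 to 2.32 CPM in BT474 and 0.423 to 1.45 CPM in BT474R, and its log2 fold changes ran from -0.47 to 0.56. In BT474R at 12 h, SOCS1 was at 0.887 and 0.682 CPM in vehicle, 1.37 and 0.888 CPM with EGF and 1.08 and 0.998 CPM with HRG. For EGF the 95% interval of that change was -0.17 to 1.29, a wide range that reflects 19 to 35 counts in these libraries. SOCS5 was steadier, at 20.5 to 24.9 CPM in BT474 and 22.7 to 26.8 CPM in BT474R, with log2 fold changes from -0.20 to 0.11.

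**Figure D4:**
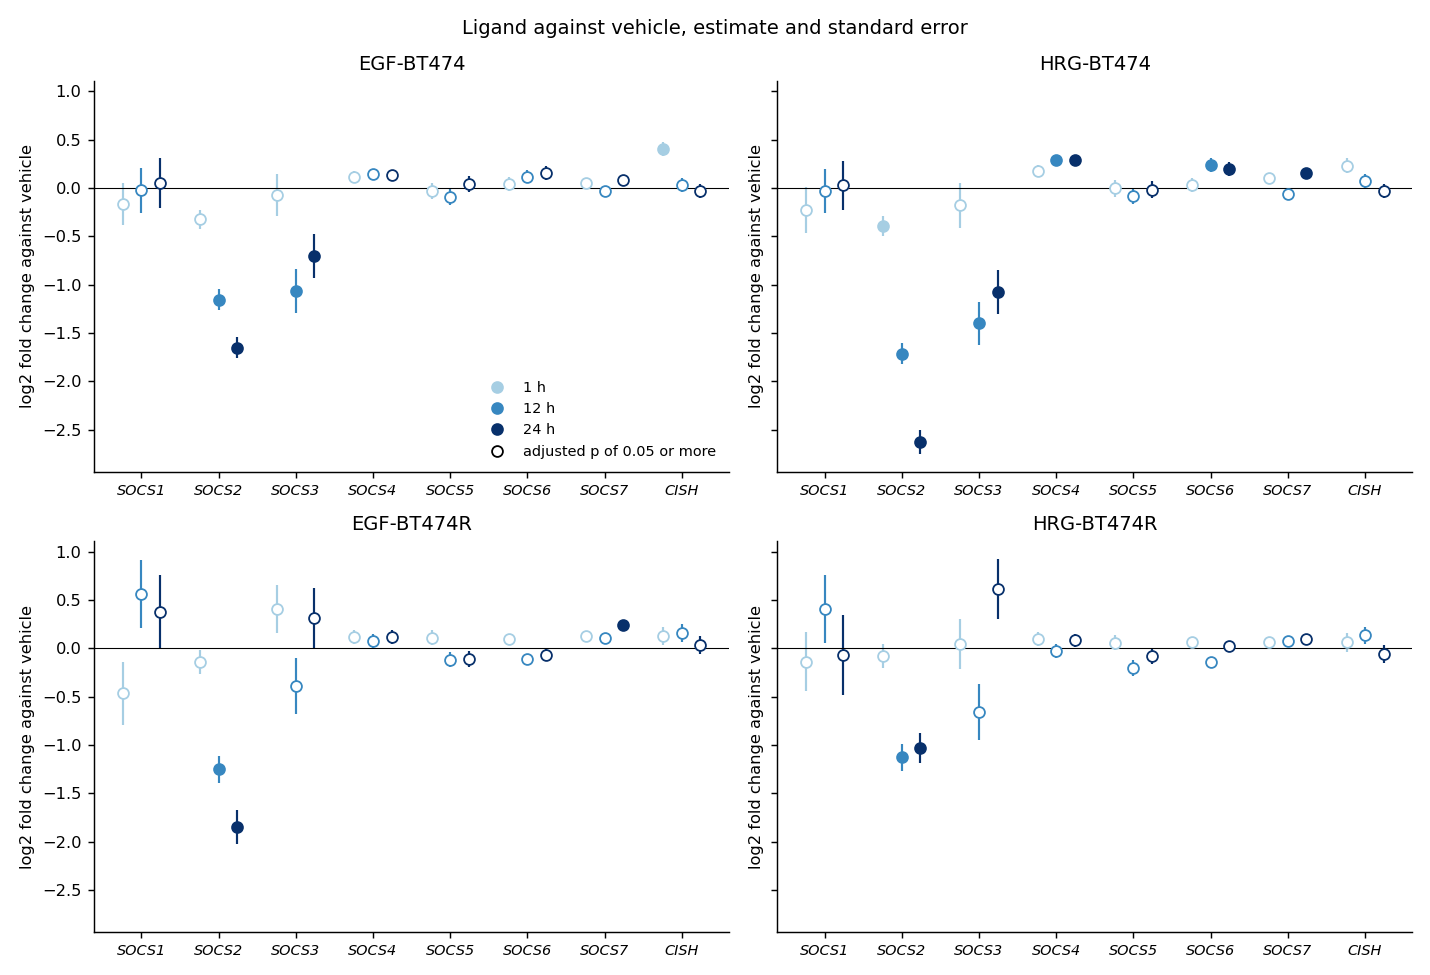
Log2 fold change of each member against vehicle with its SE as a bar, for the 4 pairs of ligand and line at 3 times. Filled points have an adjusted p under 0.05, and SOCS2 and SOCS3 are the members that fell.

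Counts of members called can be read beside the share of all genes called in the same comparison. At 1 h these were 1 of 8 beside 2.19% in EGF-BT474 and 1 of 8 beside 2.77% in HRG-BT474, and 0 of 8 beside 0.457% in EGF-BT474R and 0.169% in HRG-BT474R. In the comparisons with 0 calls, 1 and 0 members respectively had an unadjusted p under 0.05 by edgeR, and DESeq2 also called 0. At 12 h they were 2 of 8 beside 16.0% in EGF-BT474, 4 of 8 beside 25.8% in HRG-BT474, 1 of 8 beside 12.0% in EGF-BT474R and 1 of 8 beside 4.12% in HRG-BT474R. At 24 h they were 2 of 8 beside 16.4%, 5 of 8 beside 24.1%, 2 of 8 beside 17.3% and 1 of 8 beside 2.78%, in the same order. The median log2 fold change of the members stayed between -0.08 and 0.11 in all 12 comparisons, beside medians of all genes between -0.03 and 0.01.

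Ligand effects at 12 h were set against those at 1 h of the same line by an interaction term. SOCS2 dropped between these times with both ligands in both lines. In BT474 the change was -0.83 (SE 0.14, adjusted p = 9.53e-05) for EGF and -1.32 (SE 0.15, adjusted p = 2.19e-08) for HRG. In BT474R it was -1.11 (SE 0.19, adjusted p = 0.000892) for EGF and -1.05 (SE 0.19, adjusted p = 0.00391) for HRG. In BT474 SOCS3 was called as well, by -0.99 (adjusted p = 0.042) for EGF and -1.22 (adjusted p = 0.00751) for HRG, and CISH by -0.37 (adjusted p = 0.019) for EGF. Thus 3 and 2 members were called in BT474 for EGF and HRG, beside 7.72% and 14.2% of all genes, and 1 member each in BT474R, beside 4.43% and 0.992%. The SOCS3 call for EGF stayed in 1 of 8 fits that left out a library, the one without EGF 1 h replicate 2, and was lost by DESeq2 (adjusted p = 0.121) and with both lines in 1 fit. The SOCS3 call for HRG was lost without HRG 1 h replicate 1 or HRG 12 h replicate 2. The CISH call was lost without EGF 1 h replicate 2, EGF 12 h replicate 1, vehicle 1 h replicate 1 or vehicle 12 h replicate 2.

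The ligand effects were compared between the lines directly in a fit of all 40 libraries. At 24 h the HRG effect on SOCS2 was 1.56 higher in BT474R than in BT474 on the log2 scale (SE 0.21, adjusted p = 5.41e-06), that is, a smaller fall. Fits without any one library gave 1.41 to 1.70. The HRG means were close, at 2.97 CPM in BT474 and 3.08 CPM in BT474R, while the vehicle means were 17.9 and 6.38 CPM. The part of the vehicle level in this SOCS2 difference was not tested. The HRG effect on SOCS3 at 24 h differed by 1.65 (SE 0.41, adjusted p = 0.0138), with a fall in BT474 and no call in BT474R. That call was lost without BT474 vehicle 24 h replicate 2 or BT474R vehicle 24 h replicate 1. It was also lost in a fit of only the libraries compared (adjusted p = 0.0878). At 12 h the HRG effects on SOCS6 and SOCS4 were lower in BT474R, by -0.40 (SE 0.10, adjusted p = 0.0127) and -0.32 (SE 0.09, adjusted p = 0.0345). The SOCS6 call was lost without BT474 vehicle 12 h replicate 2, BT474R vehicle 12 h replicate 2 or BT474R HRG 12 h replicate 1. The SOCS4 call remained in 1 of the 8 fits that left out a library, the one without BT474R HRG 12 h replicate 1, and was lost with rows of the same gene summed (adjusted p = 0.0595). Members called for HRG were 0, 2 and 2 at the 3 times in turn, beside 0.544%, 4.07% and 3.33% of all genes. At 1 h, 0 members had an unadjusted p under 0.05 and DESeq2 called 0. At 24 h, SOCS4 was called as well without BT474R HRG 24 h replicate 1 (-0.39, adjusted p = 0.00436).

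For EGF no member was called between the lines at any time, beside 0.138%, 1.96% and 4.01% of all genes, although 1, 1 and 3 members had an unadjusted p under 0.05 by edgeR, and DESeq2 called 0. SOCS6 was called at 12 h with only the libraries compared (-0.25, adjusted p = 0.0171). Without BT474 EGF 24 h replicate 1, SOCS6 (-0.40, adjusted p = 0.00545) and SOCS7 (0.25, adjusted p = 0.0425) were called at 24 h. For SOCS2 the difference was -0.12 (95% interval -0.48 to 0.25) at 12 h and -0.21 (-0.64 to 0.23) at 24 h, which does not show that the falls were equal. SOCS3 differed by 1.00 at 24 h (interval 0.17 to 1.83, adjusted p = 0.211).

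Vehicle libraries were also compared with T0. In BT474, SOCS2 rose in vehicle by 0.39 at 12 h (SE 0.10, adjusted p = 0.00693) and 0.38 at 24 h (SE 0.10, adjusted p = 0.00556), while SOCS7 was lower at 1 h (-0.20, SE 0.05, adjusted p = 0.00543). In BT474R, CISH was lower at 1 h, at 13.7 and 12.8 CPM beside 20.8 and 18.8 CPM at T0 (-0.58, SE 0.10, adjusted p = 0.000895). SOCS6 was lower at 24 h (-0.29, SE 0.06, adjusted p = 0.00127) and so was SOCS2 (-0.42, SE 0.14, adjusted p = 0.0475), a call that was lost whichever of its 4 libraries was left out. In BT474 the vehicle rise of SOCS2 at 12 h was kept in only 1 of 4 fits that left out a library, the one without vehicle replicate 1, and the rise at 24 h was lost without T0 replicate 1 or vehicle replicate 2. The SOCS7 call was lost without T0 replicate 2 or vehicle 1 h replicate 1. In each of these comparisons 1 member was called in BT474, beside 6.61%, 6.41% and 11.4% of all genes at the 3 times in turn, and 1, 0 and 2 in BT474R, beside 2.24%, 1.13% and 13.7%. At 12 h in BT474R, 0 members had an unadjusted p under 0.05 and DESeq2 called 0. The SOCS2 call at 24 h in BT474R was also lost by DESeq2, with no filter and with only the libraries compared. CISH at 24 h in BT474R (-0.27, adjusted p = 0.0607) was called with DESeq2 size factors (0.0496), filterByExpr (0.0408) and both lines in 1 fit (0.0187). SOCS4 (-0.17) and SOCS7 (-0.12) were called at 1 h in BT474R with only the libraries compared.

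Other genes of the pathway were read from 6 lists over the same 12 comparisons. Of all 26067 genes tested in either line, 21.7% were called higher and 20.7% lower in at least 1 of them, and counts over these lists are to be read beside those shares. Of 11 JAK kinases and STAT factors, 10 of them tested, 5 fell in at least 1 comparison (JAK1, JAK2, TYK2, STAT2 and STAT6). JAK2 was called in 1 comparison only (adjusted p = 0.0232). Its log2 fold changes ran from -1.74 to 0.80 over the 12, so their size is uncertain. STAT6, the factor of IL4 signaling, fell by 1.01 on the log2 scale in HRG-BT474 at 12 h (SE 0.13, adjusted p = 3.93e-08), and STAT2, which serves interferon signaling, fell by 0.69 there (SE 0.05). In EGF-BT474R at 24 h, STAT2 instead rose by 0.29 (SE 0.08, adjusted p = 0.0203). STAT3, STAT5A and STAT5B, the factors best known for driving SOCS3, SOCS2 and CISH, were not called in any of the 12 comparisons, with lowest adjusted p of 0.179, 0.58 and 0.284. The log2 fold changes of STAT5A ran from -0.15 to 0.70. RNA levels do not show whether a STAT factor was phosphorylated, and STAT activity was not tested here.

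Among 21 cytokine receptors, 20 of them tested, 9 fell and 7 rose in at least 1 comparison, OSMR in each direction. The numbers called lower were highest in HRG-BT474 at 24 h, with 8 lower and 1 higher. Of all genes, 24.1% were called in that comparison, in either direction. PRLR, the prolactin receptor, was lower in 5 comparisons, GHR, the growth hormone receptor, in 6 and EPOR in 4. Any link of these receptors to the level of SOCS2 was not tested. IL6ST, which encodes gp130, was lower in 7 comparisons, by as much as -0.56 in HRG-BT474 at 24 h. IL11RA fell by 1.00 in HRG-BT474 at 24 h (SE 0.14, adjusted p = 7.38e-07) and PRLR by 0.76 in EGF-BT474R at 24 h (SE 0.07, adjusted p = 1.65e-07). OSMR, the oncostatin M receptor, rose by 1.15 in EGF-BT474R at 24 h (SE 0.11, adjusted p = 1.53e-07) and IL27RA by 0.82 in HRG-BT474R at 12 h (SE 0.23, adjusted p = 0.0452).

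Of 21 cytokines and hormones that act through JAK kinases, 8 passed the filter on low counts in each line, and LIF was the single one called, higher in 3 comparisons (HRG-BT474 at 12 h and 24 h and EGF-BT474R at 24 h). LIF did not reach a mean of 1 CPM over all libraries. Its log2 fold changes ran from -2.26 to 5.47 over the ligand comparisons, so their size is uncertain. Of the 5 subunits of the SOCS box ubiquitin ligase, ELOC rose by 0.25 in HRG-BT474 at 24 h (SE 0.07, adjusted p = 0.00604) and ELOB by 0.18 in EGF-BT474 at 24 h (SE 0.05, adjusted p = 0.0132), and CUL5, RNF7 and RBX1 were not called. Of 9 other inhibitors of the pathway, the phosphatase gene PTPN6 fell in 6 comparisons, by 0.45 in HRG-BT474 at 12 h (SE 0.06, adjusted p = 2.43e-07), and USP18 fell in EGF-BT474R at 24 h (-0.39, SE 0.10). PIAS3 (0.15) and PTPN1 (0.13) rose in HRG-BT474 at 24 h and EGF-BT474 at 12 h.

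Of 7 other genes known to answer to STAT factors, 5 rose and 2 fell in at least 1 comparison, JUNB and MCL1 in both directions. IRF1, an interferon-response factor, was up by 3.13 in EGF-BT474R at 12 h (SE 0.23, adjusted p = 4.67e-09), where SOCS1 was at 0.56 and not called. JUNB, an immediate-early gene, was up by 2.03 in HRG-BT474 at 1 h (SE 0.05, adjusted p = 2.97e-28) and lower by -0.28 at 24 h. PIM1 and BCL2L1 were not called.

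**Figure D5:**
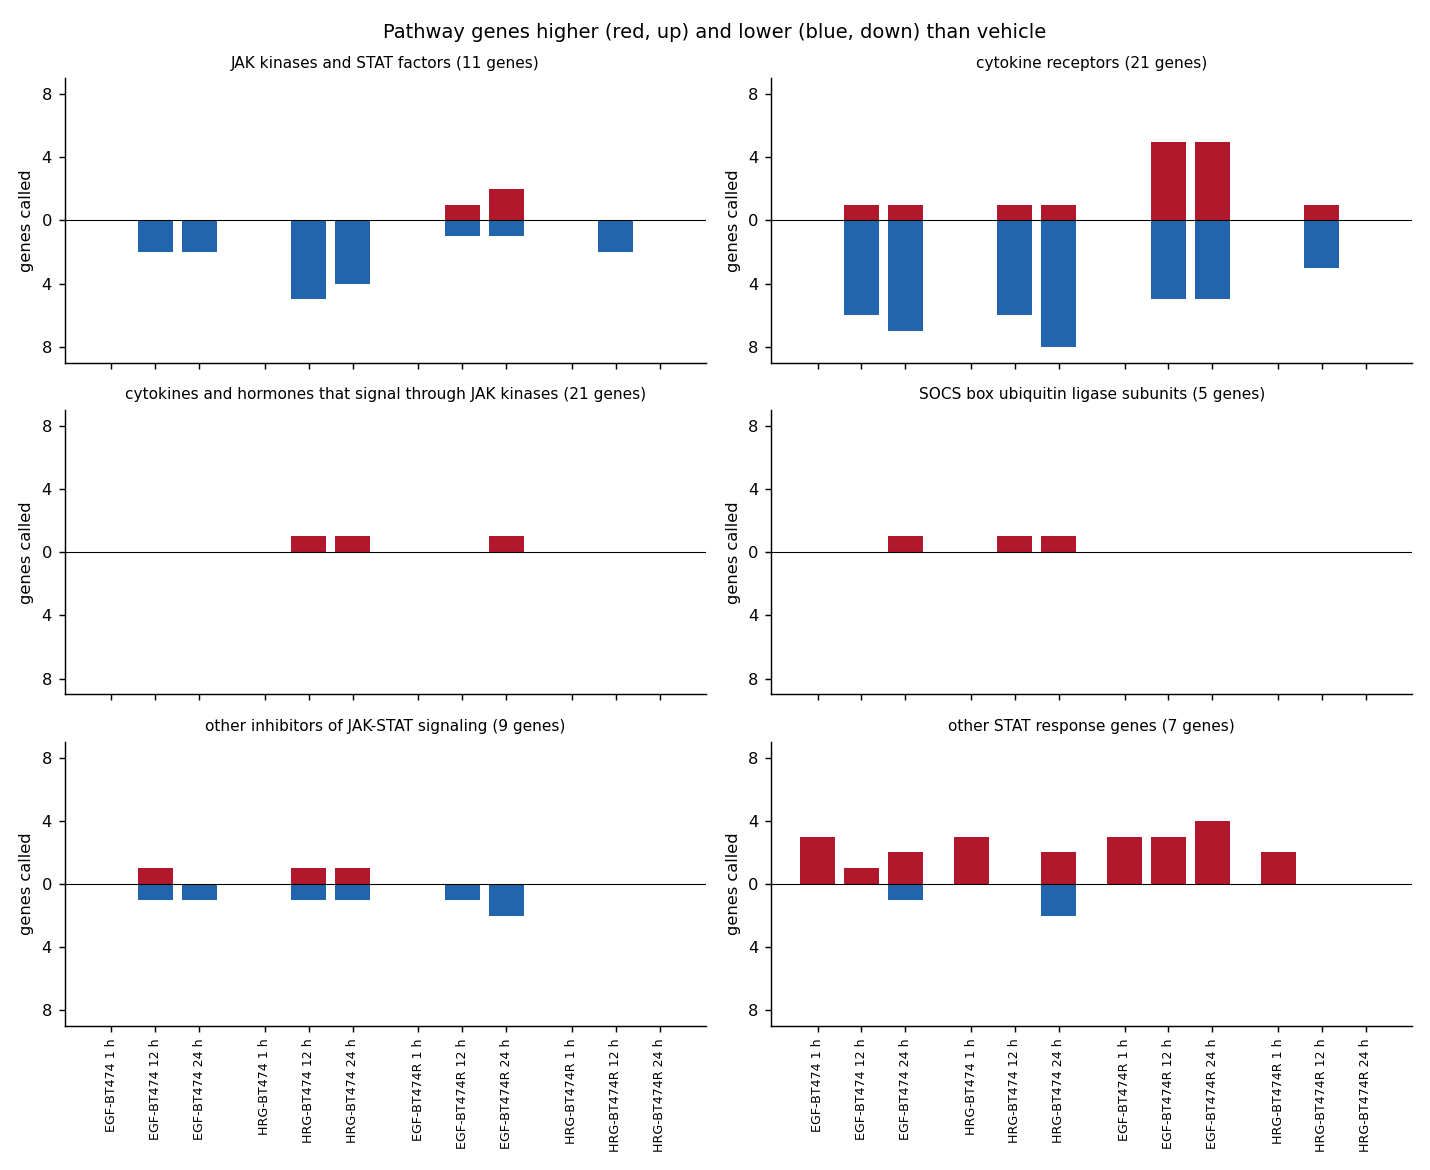
Number of genes of each pathway list called higher (up, red) or lower (down, blue) than vehicle in the 12 ligand comparisons. Cytokine receptors had 8 genes lower in HRG-BT474 at 24 h, and STAT response genes had 4 higher in EGF-BT474R at 24 h. Of all genes, 24.1% and 17.3% were called in these comparisons, in either direction.

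The members also differed in the pattern of their levels over the 20 groups, described by Pearson's r of group means on the log2 CPM scale after centring each line (prior count 2), with no test, since the groups share lines, times and libraries. SOCS2 and SOCS3 had r = 0.698, SOCS2 and SOCS4 had r = -0.847, SOCS2 and SOCS7 had r = -0.782, and CISH stayed between -0.435 and 0.273 with every other member. Among 13899 genes with a mean of at least 1 CPM, those most like SOCS2 were SELENBP1 (r = 0.963), IL1R1 (0.96) and SLC24A3 (0.959). The top gene for SOCS3 was MARCHF8 (0.892), for SOCS4 THAP9-AS1 (0.939), for SOCS6 RAB14 (0.95), for SOCS7 PDE7A (0.907) and for SOCS1 RPP38 (0.904). The closest genes for CISH and SOCS5 were less alike, SIN3B at 0.778 and DNAJC16 at 0.759.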

How the data were processed

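The authors trimmed paired-end reads with Trim Galore 0.6.6, aligned them to GRCh38.p13 and counted reads per gene with featureCounts of Rsubread. The deposited values are raw counts per gene, neither normalized nor filtered. Which annotation release was used, whether strand was counted and how reads mapping to several genes were handled is not given in the sources used here. Names that repeat a gene with a number (5078) were kept as separate rows. The genes tested had 1 count or more in no fewer than 50% of a fit's libraries, 25146 in BT474, 24287 in BT474R and 24641 in both lines, with edgeR 4.0.16 (TMM, quasi-likelihood F test, limma 3.58.1, R 4.3.3), 1 fit per line of 20 libraries and 1 of 40 for contrasts between lines. SE is the unshrunk log2 change divided by the square root of F, and intervals use the test's degrees of freedom. p-values were adjusted over all genes tested. The members, lists and tests were chosen with earlier results of these data known. The HRG against EGF contrast between lines and the summing of copy rows were added after the values were seen. The fit was tested on simulated data. Named pathway genes are, per list, up to 2 with the largest rise and 2 with the largest fall among genes called in a ligand comparison with a mean of at least 1 CPM. Others were named after their values were seen. For 1 listed gene, no value is reported here.

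Alternatives tried were DESeq2 1.42.0, edgeR with the size factors of DESeq2, only the libraries compared, filterByExpr or no filter on low counts, both lines in 1 fit, a replicate block, summed copy rows and leaving out each library in turn. In contrasts between lines, fits without a library kept the genes and trended dispersion of the full fit. Per the study's methods, each treatment was carried out in duplicate. Whether the duplicates came from different days or passages is not given, so p-values measure the spread between these duplicates. Replicates differed by more than counting noise in all groups (median chi-square over genes 0.595 to 2.56, where counting alone gives 0.455). The largest value was that of HRG-BT474R at 24 h.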

Additional observations from a re-analysis of the deposited data

Results flagged for a closer look

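These differences between groups were picked out by a test of the difference itself, and no explanation of them was tested. Ligand effects at 12 h differed from those at 1 h for SOCS2 in BT474 (-0.83 for EGF and -1.32 for HRG, log2 scale) and in BT474R (-1.11 for EGF and -1.05 for HRG). In BT474 they also differed for SOCS3 (-0.99 for EGF and -1.22 for HRG) and for CISH (-0.37 for EGF).

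The HRG effect differed between the lines, as BT474R minus BT474, for SOCS4 (-0.32) and SOCS6 (-0.40) at 12 h and for SOCS2 (1.56) and SOCS3 (1.65) at 24 h. For SOCS2 at 24 h the HRG means were 2.97 CPM in BT474 and 3.08 CPM in BT474R, and the vehicle means 17.9 and 6.38 CPM. For SOCS3 at 24 h the BT474R vehicle libraries were at 0.999 and 1.03 CPM, the lowest pair of vehicle values for this gene. The part of the vehicle level in the difference was not tested for either gene.

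The difference between HRG and EGF at 24 h, as BT474R minus BT474, was 1.76 for SOCS2 and -0.24 for SOCS7. Replicates of HRG-BT474R at 24 h differed more than those of any other group, with a median chi-square of 2.56 over genes, but its SOCS2 values of 3.07 and 3.10 CPM were close to each other.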

How the results depend on the processing

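Of 304 tests of a member in a comparison, 47 were called, and 28 of these were called in every alternative that gave an adjusted p and without any one library. DESeq2 gave none for 1 of the 28, SOCS2 for HRG against EGF in BT474 at 24 h. No direction was reversed. Of the 257 others, 17 were called under at least 1 alternative and 12 without a library. With the replicate block, the same 47 calls were made, for example 5 members in HRG-BT474 at 24 h. Deviations of same-numbered replicates had r between -0.089 and 0.396 over the 12 ligand comparisons, above 0.1 at 24 h in EGF-BT474 (0.141), HRG-BT474 (0.272) and HRG-BT474R (0.396). No source ties the numbers to a shared culture or day, so the numbers were not taken as pairs. DESeq2 gave no adjusted p in 19 tests in all.

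Numbers of members called moved as follows. DESeq2 called 1 in EGF-BT474 at 24 h, 0 in HRG-BT474 at 1 h, and for HRG against EGF 1 in BT474 and 2 in BT474R. With filterByExpr, 2 were called for HRG against EGF in BT474R. With only the libraries compared, 2 were called in EGF-BT474R at 12 h, 0 in HRG-BT474 at 1 h, 0 in HRG-BT474R at 24 h and 0 for HRG against EGF in BT474R. These fits hold 4 libraries, which leaves few degrees of freedom. With both lines in 1 fit, 0 were called in HRG-BT474 at 1 h. With copy rows summed, 3 were called in HRG-BT474 at 1 h and 1 for HRG against EGF between the lines. The cause of these shifts was not tested.

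Leaving out 1 library in turn gave 1 to 4 members in EGF-BT474 at 24 h, 0 to 1 in HRG-BT474 at 1 h, 3 to 4 in HRG-BT474 at 12 h and at 24 h, 1 to 4 for HRG against EGF in BT474 and 0 to 2 in BT474R. For the effect at 12 h against 1 h it gave 3 to 5 in BT474 and 2 in BT474R. It gave 2 to 6 for ligand effects between the lines, 1 to 3 for HRG against EGF between the lines, 1 to 3 for vehicle against T0 in BT474 and 2 to 3 in BT474R, and 5 to 6 for the lines at T0. A group left with 1 library is assumed to vary like the others. SOCS1 and SOCS3 in BT474R, with as few as 9 and 17 counts in a library, are limited by depth.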
